A study of Mus musculus with 18 samples.

Results

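The genes described here carry out V(D)J recombination, the cutting and rejoining of DNA that assembles antigen receptor genes in lymphocytes. They were chosen by name: 10 genes, of 20672 genes measured, whose symbol equals Rag1, Rag2, Dntt, Prkdc, Dclre1c, Lig4, Xrcc4, Xrcc5, Xrcc6 or Nhej1. All 10 were measured, by 16 probe sets, and each gene was read from its brightest probe set over the 18 arrays. No filter on low values was applied, so every gene counts in every comparison.

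Gene expression was measured on Affymetrix mouse arrays in 3 groups of mice. The Idh2R140Q/NHD13 group had 9 arrays of leukemic spleen from mice carrying both the Idh2 R140Q mutation, in a mitochondrial isocitrate dehydrogenase, and NHD13, the NUP98-HOXD13 fusion transgene. Their T-cell acute lymphoblastic leukemia (T-ALL) is labelled DN1/DN2, after the earliest thymocyte stages, which lack CD4 and CD8. The SCL/LMO1 group had 6 arrays of leukemic thymus with cortical T-ALL, labelled CD4+CD8+, from mice carrying the SCL and LMO1 transgenes, and the WT group had 3 arrays of wild-type thymus. The promoters of the transgenes and the age of the mice are not given in the sources used here. Spleen was sampled only from Idh2R140Q/NHD13 mice, so tissue and genotype cannot be told apart in either comparison with that group.

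In V(D)J recombination the RAG1 and RAG2 proteins together recognise recombination signal sequences and cut beside them. Both are made almost only in developing lymphocytes, as is the template-independent DNA polymerase TdT, the product of Dntt, which adds nucleotides at the junctions. The broken ends are then rejoined by classical non-homologous end joining, which operates in most cell types. The Ku heterodimer, made of the products of Xrcc5 and Xrcc6, binds the ends and recruits the DNA-dependent protein kinase catalytic subunit, the product of Prkdc. That kinase activates Artemis, the nuclease encoded by Dclre1c, which opens the hairpin-sealed coding ends. DNA ligase IV, encoded by Lig4, seals the ends with its partners XRCC4 and XLF, the product of Nhej1. In the mouse thymus Rag1 and Rag2 RNA rises after the DN1 stage and is high in cortical cells carrying CD4 and CD8, where the T-cell receptor alpha chain is assembled.

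The promoters of Rag1, Rag2, Dntt, Lig4 and Xrcc6 are shown because these are the 5 genes whose Idh2R140Q/NHD13 and SCL/LMO1 samples did not overlap. Each runs 5′ to 3′ on the gene's strand, covering the 250 bases before the annotated start and the 50 after it, and capitals mark the CG dinucleotides. The sequences are those of RefSeq on assembly GRCm38.p6, at chr2:101649483-101649782 (minus strand) for Rag1, chr2:101624462-101624761 (plus) for Rag2, chr19:41029025-41029324 (plus) for Dntt, chr8:9977631-9977930 (minus) for the Lig4 start farther upstream, and chr15:82016119-82016418 (plus) for Xrcc6.
Rag1 promoter: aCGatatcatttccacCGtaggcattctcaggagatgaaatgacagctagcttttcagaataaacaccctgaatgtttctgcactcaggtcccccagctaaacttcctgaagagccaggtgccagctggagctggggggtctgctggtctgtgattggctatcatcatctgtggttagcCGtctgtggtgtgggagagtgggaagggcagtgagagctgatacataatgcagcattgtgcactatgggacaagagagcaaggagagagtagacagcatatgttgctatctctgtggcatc
Rag2 promoter: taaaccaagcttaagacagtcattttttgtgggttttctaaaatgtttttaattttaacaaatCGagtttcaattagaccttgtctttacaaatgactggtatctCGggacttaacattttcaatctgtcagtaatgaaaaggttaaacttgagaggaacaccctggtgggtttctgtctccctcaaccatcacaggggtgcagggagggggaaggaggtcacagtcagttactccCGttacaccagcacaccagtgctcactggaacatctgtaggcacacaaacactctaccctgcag
Dntt promoter: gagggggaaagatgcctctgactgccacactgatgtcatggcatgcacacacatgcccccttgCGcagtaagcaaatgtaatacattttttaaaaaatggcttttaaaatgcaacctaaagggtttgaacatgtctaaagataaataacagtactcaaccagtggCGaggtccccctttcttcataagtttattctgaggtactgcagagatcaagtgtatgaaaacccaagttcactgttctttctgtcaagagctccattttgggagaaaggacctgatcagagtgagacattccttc
Lig4 promoter: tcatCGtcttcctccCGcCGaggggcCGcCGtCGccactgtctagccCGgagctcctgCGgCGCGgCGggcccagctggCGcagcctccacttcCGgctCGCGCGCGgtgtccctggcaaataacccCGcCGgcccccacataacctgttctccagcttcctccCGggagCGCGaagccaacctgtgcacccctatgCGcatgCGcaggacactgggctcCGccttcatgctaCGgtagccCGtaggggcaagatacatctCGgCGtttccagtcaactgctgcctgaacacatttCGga
Xrcc6 promoter: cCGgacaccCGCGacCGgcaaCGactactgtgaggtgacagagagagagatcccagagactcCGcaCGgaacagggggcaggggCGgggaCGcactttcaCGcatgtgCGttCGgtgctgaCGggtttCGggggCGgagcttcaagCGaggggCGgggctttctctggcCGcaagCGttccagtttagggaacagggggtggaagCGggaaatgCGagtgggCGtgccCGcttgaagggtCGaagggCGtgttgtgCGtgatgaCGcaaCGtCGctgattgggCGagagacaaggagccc

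The lymphoid-specific promoters were poor in CG. Rag1 and Rag2 had 3 CG dinucleotides each and Dntt had 2, below the median of 7 over all 32851 promoter windows of the same length. Among the end-joining genes Xrcc4 had 31, Xrcc6 had 30, the Lig4 windows had 30 and 29, Dclre1c had 12, Nhej1 had 10 and Xrcc5 had 9. The end-joining genes with the most CG, Lig4, Xrcc4 and Xrcc6, are also those called lower in Idh2R140Q/NHD13 relative to SCL/LMO1 T-ALL, while Dclre1c, Nhej1 and Xrcc5 were not called. The genes called lower thus had either 2 to 3 or 29 to 31 CG dinucleotides in a window, and the uncalled ones 9 to 12. This is a description of 9 genes, all but Prkdc, with no test.

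Motif matches were counted on both strands as plain letters, and a match is a description of the sequence, not a binding site. The E-box CANNTG, read by E proteins such as E2A, occurs in 72.3% of all windows. It matched 4 times in Rag1, 3 times in Dntt, 2 times in Rag2, Dclre1c, Xrcc5 and each Lig4 window, 1 time in Xrcc6 and Nhej1, and 0 times in Xrcc4. TGTGGT, the core letters of a RUNX site, matched 2 times in Rag1 and in no other member's window, and occurs in 16.8% of all windows. AGATAA, of the GATA type, matched 1 time each in Dntt and Nhej1 and occurs in 11.2% of windows. TCAAAG, of the TCF and LEF type, matched 1 time in Dclre1c alone among the 9 genes and occurs in 16% of windows. GGGCGG, an SP-type GC box that occurs in 35.7% of windows, matched 3 times each in Xrcc4 and Xrcc6, 2 times in Nhej1 and the Lig4 window not shown, and 1 time in Dclre1c. CCGGAA, the core of an ETS site, matched 2 times in Xrcc4 and 1 time in Dclre1c and each Lig4 window, and occurs in 14.9%. TATAAA matched in none of the windows of these 9 genes and occurs in 13.6% of all windows. CCGGAA and GGGCGG hold a CG themselves, so their counts are not independent of CG content.

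The values are log2 signals, so 1 unit is a doubling of signal, and they compare samples for a gene, not genes with each other. Array medians lay between 5.891 and 6.01, the 10th percentile of each array lay between 3.67 and 3.81, and precision is limited by how many arrays there are. In the Idh2R140Q/NHD13 group, mice 546 and 550 were nearly alike (root mean square difference over all probe sets 0.211, with 0.445 the next smallest of the other 152 array pairs), so they were averaged and counted as 1 sample. This left 8 Idh2R140Q/NHD13, 6 SCL/LMO1 and 3 WT samples. Nothing in the labels says that SCL/LMO1 mice 7114/1 and 7114/3, the next most alike pair, are unrelated, and p-values measure the spread between mice only as far as mice are independent. Marker lists were read beside the T-lineage labels. The mean log2 signal of 8 double-positive thymocyte markers, among them Cd4 and Cd8a, was 6.03 to 8.11 in Idh2R140Q/NHD13 samples, 9.25 to 10.99 in SCL/LMO1 samples and 10.52 to 11.04 in WT samples. This order goes with the labels, but only the Idh2R140Q/NHD13 samples are spleen, so it cannot check their stage label. The 8 early T-lineage markers, named below, were also lower in the spleens, with means of 6.78 to 9.56. They averaged 10.15 to 11.71 in SCL/LMO1 and 10.07 to 10.86 in WT samples. Of 10 erythroid markers 9 were measured, with means of 8.96 to 11.97 in Idh2R140Q/NHD13 spleens, 4.78 to 5.34 in SCL/LMO1 thymi and 5.05 to 5.62 in WT thymi. The 7 neutrophil markers averaged 6.83 to 12.5, 5.73 to 9.89 and 5.75 to 6.95 in the same order of groups, and the 8 B-cell precursor markers 5.3 to 6.31, 5.39 to 6.42 and 6.05 to 6.81. The part of these cell types in the results was not tested. In bulk tissue, fewer cells of a type and less RNA per cell cannot be told apart.

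**Figure D1:**
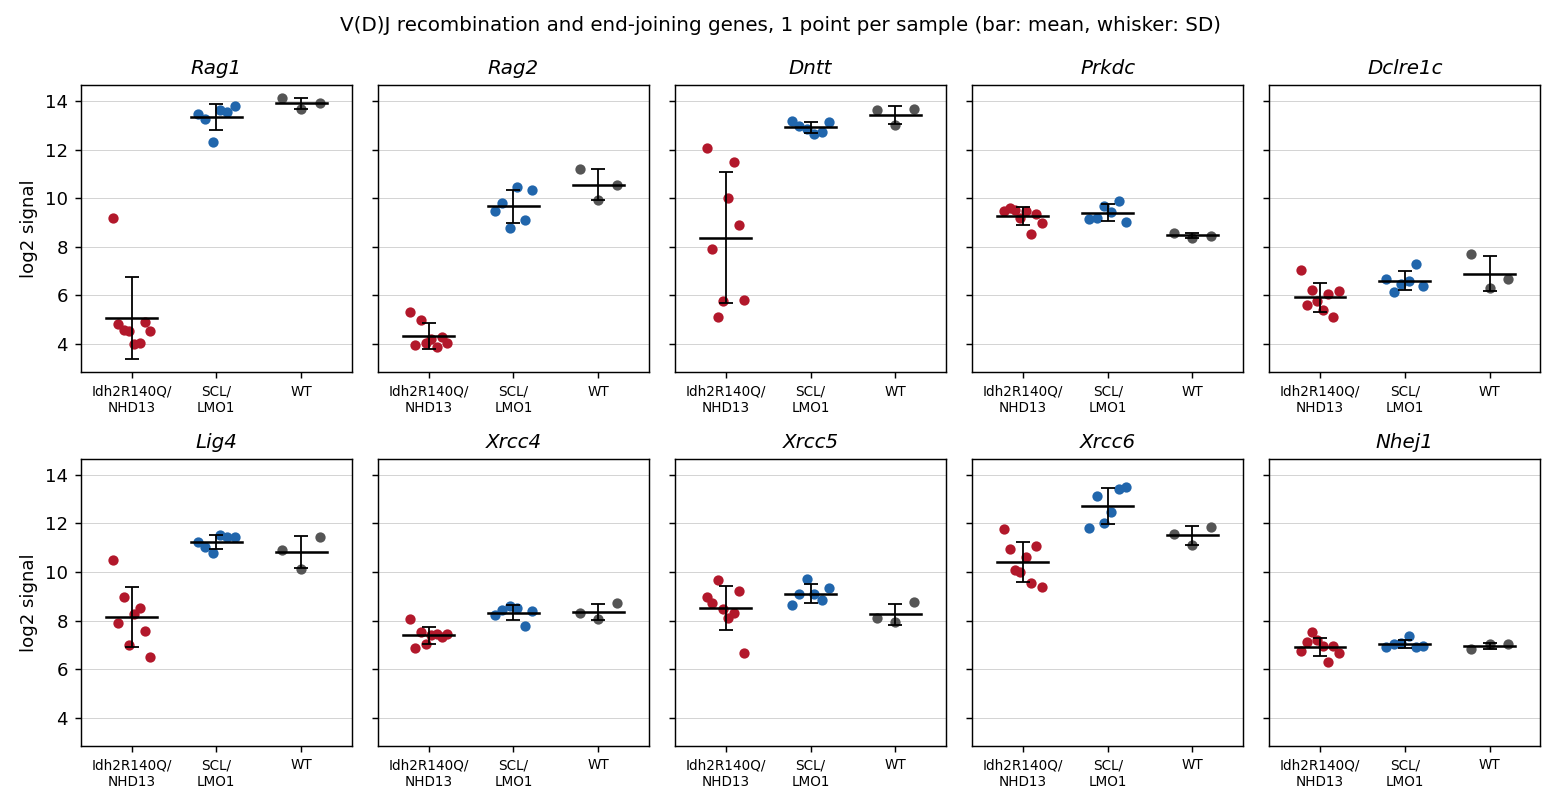
Log2 signal of the 10 genes (vertical axis, shared by all panels) in Idh2R140Q/NHD13 (8 samples), SCL/LMO1 (6) and WT (3), with 1 point per sample, the mean as a bar and the SD as a whisker. Rag1 and Rag2 lie at the bottom of the axis in the spleens, except Rag1 at 9.2 in mouse 524, while Dntt spreads from 5.09 to 12.05 there and Nhej1 keeps between 6.28 and 7.51 in all samples.

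Rag1 (chromosome 2, probe set 1450680_at), the catalytic subunit of the recombinase, was almost at the low end of the arrays in the Idh2R140Q/NHD13 spleens. Its lowest, median and highest values were 3.99, 4.55 and 9.2 in Idh2R140Q/NHD13 samples, 12.32, 13.52 and 13.78 in SCL/LMO1 samples, and 13.68, 13.93 and 14.12 in WT samples. The spleen of mouse 524 held the value of 9.2, and the other 7 Idh2R140Q/NHD13 samples lay between 3.99 and 4.92, so the group overlapped neither of the others. The mean of 5.07 ± 1.7 (SD, n = 8) in Idh2R140Q/NHD13 T-ALL stood against 13.34 ± 0.53 (n = 6) in SCL/LMO1 T-ALL, a log2 difference of -8.26 (SE 0.63, adjusted p = 3.06e-07 by limma over all 20672 genes). Against the WT mean of 13.91 ± 0.22 (n = 3) the difference was -8.84 (SE 0.79, adjusted p = 4.29e-06). A gene was called at an adjusted p under 0.05 throughout. Since 7 of the 8 Idh2R140Q/NHD13 values lay near the low end of the arrays, no fold is given.

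Rag2 (chromosome 2, probe set 1418065_at), the regulatory subunit, is the gene next to Rag1 and lies in the opposite orientation. It ranged over 3.88, 4.12 and 5.31 (lowest, median and highest) in Idh2R140Q/NHD13 samples, 8.77, 9.65 and 10.48 in SCL/LMO1 samples, and 9.92, 10.55 and 11.19 in WT samples. Mouse 524 was again the highest of the spleens at 5.31, followed by mouse 526 at 4.98, and no spleen came within 3 units of a thymus. The log2 difference of Idh2R140Q/NHD13 was -5.34 (SE 0.31, adjusted p = 1.2e-08 by limma) against SCL/LMO1 and -6.22 (SE 0.39, adjusted p = 1.33e-07) against WT.

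Dntt (chromosome 19, probe set 1449757_x_at), which encodes TdT, was also lower in Idh2R140Q/NHD13 T-ALL but varied widely from mouse to mouse. Its lowest, median and highest values were 5.09, 8.4 and 12.05 in Idh2R140Q/NHD13 samples, 12.63, 12.91 and 13.18 in SCL/LMO1 samples, and 13.01, 13.63 and 13.67 in WT samples. The spleens of mice 524, 555 and 546 with 550 were high at 12.05, 11.49 and 10, those of mice 559 and 525 stood at 8.89 and 7.9, and those of mice 570, 531 and 526 were low at 5.82, 5.76 and 5.09. The SD was 2.69 in Idh2R140Q/NHD13 samples, against 0.22 in SCL/LMO1 and 0.37 in WT samples. The log2 difference was -4.54 (SE 0.97, adjusted p = 0.00294 by limma) against SCL/LMO1 and -5.06 (SE 1.22, adjusted p = 0.0107) against WT. The call against WT was lost without WT mouse 623 (adjusted p = 0.0572 by limma, difference -4.96) and when only those 2 groups were fitted (adjusted p = 0.0544). The other Dntt probe sets gave the same direction, with differences from SCL/LMO1 of -4.94 for 1450545_a_at and -3.21 for 1420166_at, and the first of them was at 11.61 in mouse 524, 10.61 in mouse 555 and 4.15 in mouse 526.

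High Dntt signal was found in spleens with Rag1 at the low end. Mouse 555 had Dntt at 11.49 with Rag1 at 4.04 and Rag2 at 3.88, and mice 546 and 550, averaged, had Dntt at 10 with Rag1 at 3.99. Mouse 524 was the only one of the 8 Idh2R140Q/NHD13 samples with Rag1 above 5. The T-lineage marker signal of the spleens differed as well. The mean of 8 early T-lineage markers (Cd3d, Cd3e, Cd3g, Lck, Cd2, Cd7, Il7r and Il2ra) was 6.78, 6.83 and 6.9 in mice 531, 570 and 525, and 8.69 to 9.56 in the other spleens. It was 10.15 to 11.71 in SCL/LMO1 samples and 10.07 to 10.86 in WT samples. Dntt did not follow that mean in every mouse, since mouse 526 had Dntt at 5.09 with an early T-lineage mean of 9.32. Mouse 524 had the highest early T-lineage mean (9.56) and the highest double-positive mean (8.11) of the spleens. The early T-lineage list was higher in both thymus groups than in any spleen. Only the spleens carry the DN1/DN2 label, so this list cannot tell T-lineage content from stage. The part of T-lineage content in these values was not tested.

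**Figure D2:**
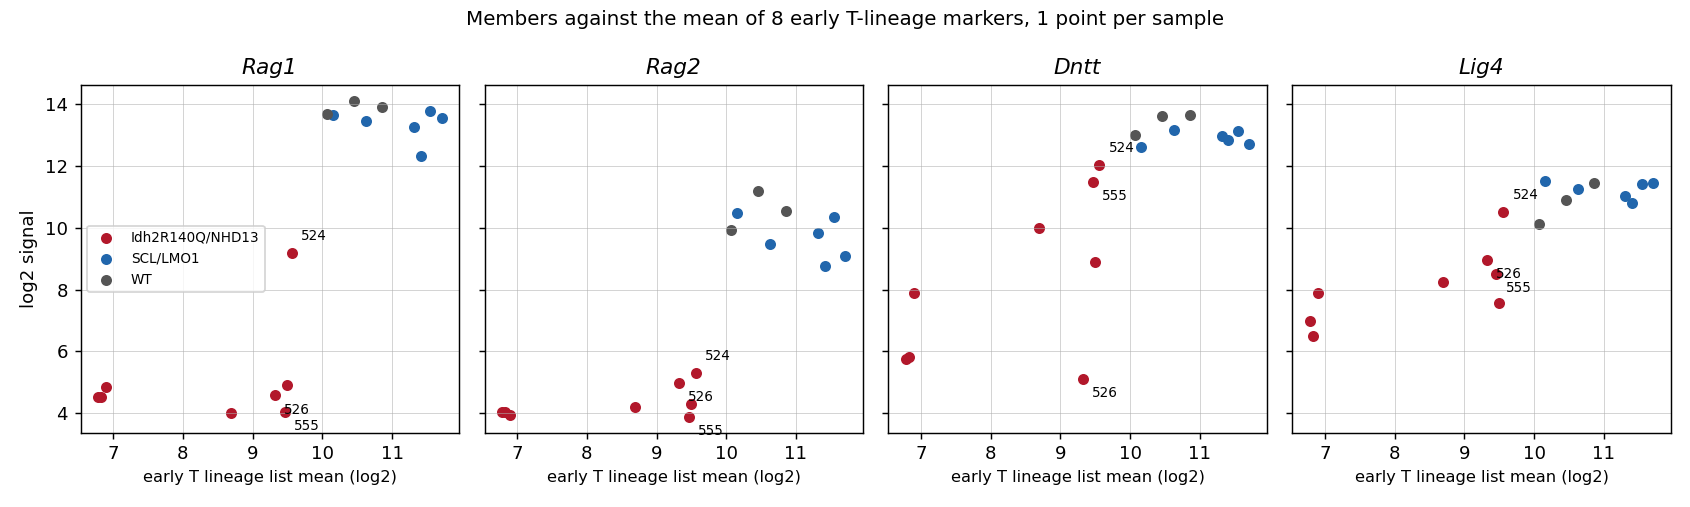
Log2 signal of Rag1, Rag2, Dntt and Lig4 (vertical axis) against the mean log2 signal of 8 early T-lineage markers (horizontal axis), with 1 point per sample, coloured by group. In the 5 spleens with early T-lineage means of 8.69 to 9.56, Rag1 was at 3.99 to 4.92 in all but mouse 524 (9.2), while Dntt ran from 5.09 in mouse 526 to 12.05 in mouse 524.

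Within a group, none of the 6 pairwise relations of the 3 lymphoid-specific genes passed after adjustment. Over the 8 Idh2R140Q/NHD13 samples Rag1 and Rag2 had Pearson r = 0.76 and Spearman rho = 0.52 (two-sided exact permutation p = 0.0504 and 0.197, adjusted p = 0.2 and 0.59 over 6 relations). That r was 0.23 without mouse 524 and mice 546 with 550, the samples farthest from the median of Rag1, and 0.17 without mouse 524 alone, so it rests on that mouse. Rag1 and Dntt had r = 0.46 and rho = 0.07 in the same samples (exact permutation p = 0.288 and 0.882, adjusted p = 0.577 and 0.935), and r was -0.37 without the same pair of samples and -0.51 without mouse 524. Rag2 and Dntt had r = 0.17 and rho = 0.05 (exact permutation p = 0.683 and 0.935, adjusted p = 0.865 and 0.935), with r = 0.05 without mice 524 and 526 and -0.45 without mouse 524. Over the 6 SCL/LMO1 samples Rag1 and Rag2 had r = 0.72 and rho = 0.71 (exact permutation p = 0.0667 and 0.136, adjusted p = 0.2 and 0.59), and r was 0.18 without mice 6889/1 and 7114/1. The SCL/LMO1 values of r were 0.12 for Rag1 with Dntt and 0.09 for Rag2 with Dntt, with rho of -0.09 for both (exact permutation p = 0.86 and 0.865 for r, 0.919 for each rho, adjusted p = 0.865 and 0.935). They were -0.64 and 0.67 without the samples farthest from the median.

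Of the Ku subunits, 1 was called in a comparison. Xrcc6 (chromosome 15, probe set 1417437_at), encoding Ku70, was lower in Idh2R140Q/NHD13 relative to SCL/LMO1 T-ALL. Lowest, median and highest samples stood at 9.37, 10.34 and 11.78 in Idh2R140Q/NHD13 samples, 11.8, 12.8 and 13.49 in SCL/LMO1 samples, and 11.1, 11.57 and 11.86 in WT samples. The leukemia groups touched without overlapping, at 11.78 in mouse 524 and 11.8 in mouse 3767. SCL/LMO1 mice 7114/3, 6883/2 and 7114/1 were the highest of all 17 samples, at 13.12, 13.42 and 13.49. The log2 difference between Idh2R140Q/NHD13 and SCL/LMO1 was -2.29 (SE 0.38, adjusted p = 0.000412 by limma). Against WT, Xrcc6 did not pass in Idh2R140Q/NHD13 (-1.09, 95% interval -2.09 to -0.08, adjusted p = 0.12) nor in SCL/LMO1 T-ALL (1.2, 0.15 to 2.26, adjusted p = 0.13). It did pass against WT without mouse 524 in the first of these (adjusted p = 0.0455) and with array weights in the second (adjusted p = 0.0436). The other Xrcc6 probe set, 1428504_at, gave -2.46, -1.27 and 1.19 (log2 differences for Idh2R140Q/NHD13 against SCL/LMO1, against WT, and SCL/LMO1 against WT).

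Xrcc5 (chromosome 1, probe set 1451968_at), encoding Ku80, passed in no comparison. Lowest, median and highest samples stood at 6.67, 8.59 and 9.65 in Idh2R140Q/NHD13 samples, 8.63, 9.09 and 9.7 in SCL/LMO1 samples, and 7.93, 8.1 and 8.76 in WT samples. The groups overlapped, and mouse 570 at 6.67 was the lowest of all samples. The log2 difference was -0.6 (95% interval -1.36 to 0.15, adjusted p = 0.245 by limma) for Idh2R140Q/NHD13 against SCL/LMO1, 0.25 (-0.7 to 1.19, adjusted p = 0.709) against WT, and 0.85 (-0.14 to 1.84, adjusted p = 0.253) for SCL/LMO1 against WT. With only those last 2 groups in the fit it passed, at an adjusted p of 0.0495.

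Prkdc (chromosome 16, probe set 1451576_at), the kinase whose mutation gives scid mice, was the one gene of the 10 called higher in leukemia than in WT thymus by limma. From lowest through median to highest, the signals were 8.51, 9.41 and 9.59 in Idh2R140Q/NHD13 samples, 9.04, 9.32 and 9.9 in SCL/LMO1 samples, and 8.38, 8.46 and 8.57 in WT samples. All 6 SCL/LMO1 samples lay above the WT samples, and so did 7 of the 8 Idh2R140Q/NHD13 samples, mouse 555 at 8.51 being the exception. The difference from WT was 0.79 (SE 0.22, adjusted p = 0.0217 by limma) in Idh2R140Q/NHD13 and 0.94 (SE 0.23, adjusted p = 0.0155) in SCL/LMO1 T-ALL. The first call was lost without WT mouse 623, 627 or 631 (adjusted p = 0.0691, 0.0869 and 0.0541), and the second without WT mouse 627 (adjusted p = 0.0885), with differences of 0.75 to 0.84 and of 0.89. Both comparisons use the same 3 WT samples. Between the leukemias Prkdc differed by -0.14 (95% interval -0.51 to 0.23, adjusted p = 0.599).

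Dclre1c (chromosome 2, probe set 1457679_at), encoding Artemis, was dim and passed in no comparison. From lowest through median to highest, the signals were 5.1, 5.92 and 7.05 in Idh2R140Q/NHD13 samples, 6.15, 6.52 and 7.31 in SCL/LMO1 samples, and 6.29, 6.68 and 7.7 in WT samples. The groups overlapped, with mouse 524 the highest spleen at 7.05 and the others at most at 6.2. The log2 difference of Idh2R140Q/NHD13 was -0.67 (95% interval -1.28 to -0.07, adjusted p = 0.102 by limma) against SCL/LMO1 and -0.96 (-1.72 to -0.2, adjusted p = 0.0725) against WT. Without mouse 524 both passed, at differences of -0.83 and -1.12 (adjusted p = 0.0223 and 0.0193). The SCL/LMO1 difference from WT was -0.29 (-1.08 to 0.5, adjusted p = 0.658), and it was 0.12 without WT mouse 623.

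Lig4 (chromosome 8, probe set 1439487_at), the ligase of the pathway, was the end-joining gene with the largest difference of the 7 in both comparisons of Idh2R140Q/NHD13. The lowest, median and highest signals were 6.49, 8.08 and 10.51 in Idh2R140Q/NHD13 samples, 10.79, 11.34 and 11.52 in SCL/LMO1 samples, and 10.12, 10.91 and 11.44 in WT samples. Mouse 524 was highest among the spleens at 10.51, above WT mouse 627 at 10.12, and the next highest spleen was mouse 526 at 8.97. The log2 difference of Idh2R140Q/NHD13 was -3.1 (SE 0.48, adjusted p = 0.000226 by limma) against SCL/LMO1 and -2.67 (SE 0.6, adjusted p = 0.007) against WT, signals 8.56-fold and 6.38-fold lower. In SCL/LMO1 T-ALL the difference from WT was 0.42 (95% interval -0.9 to 1.74, adjusted p = 0.706).

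Xrcc4 (chromosome 13, probe set 1424602_s_at), the scaffold protein that holds the ligase, was lower by a smaller amount. The lowest, median and highest signals were 6.86, 7.42 and 8.06 in Idh2R140Q/NHD13 samples, 7.77, 8.42 and 8.59 in SCL/LMO1 samples, and 8.07, 8.29 and 8.71 in WT samples. Only mouse 524, at 8.06, reached the range of SCL/LMO1 samples, and no spleen reached that of WT samples. The margin was thin, since WT mouse 627 stood at 8.07. By the other probe set, 1424601_at, those groups overlapped, at 7.82 in mouse 524 and 7.78 in WT mouse 627. The log2 difference of Idh2R140Q/NHD13 was -0.93 (SE 0.17, adjusted p = 0.00103 by limma) against SCL/LMO1 and -0.97 (SE 0.22, adjusted p = 0.00725) against WT, and the other probe set, 1424601_at, gave -0.76 and -0.69. In SCL/LMO1 T-ALL it was -0.04 (95% interval -0.52 to 0.44, adjusted p = 0.941).

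Nhej1 (chromosome 1, probe set 1429098_s_at), encoding XLF, passed in no comparison. Across samples, the lowest, median and highest values were 6.28, 6.96 and 7.51 in Idh2R140Q/NHD13 samples, 6.9, 6.99 and 7.38 in SCL/LMO1 samples, and 6.81, 7.03 and 7.04 in WT samples. The log2 difference was -0.11 (95% interval -0.44 to 0.21, adjusted p = 0.638 by limma) for Idh2R140Q/NHD13 against SCL/LMO1, -0.04 (-0.44 to 0.37, adjusted p = 0.902) against WT, and 0.08 (-0.35 to 0.5, adjusted p = 0.849) for SCL/LMO1 against WT. Its other probe set, 1425651_at, had the opposite sign in the comparisons of Idh2R140Q/NHD13, at 0.26 and 0.33 (adjusted p = 0.0854 and 0.0923 over 45037 probe sets), so its direction is not settled.

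**Figure D3:**
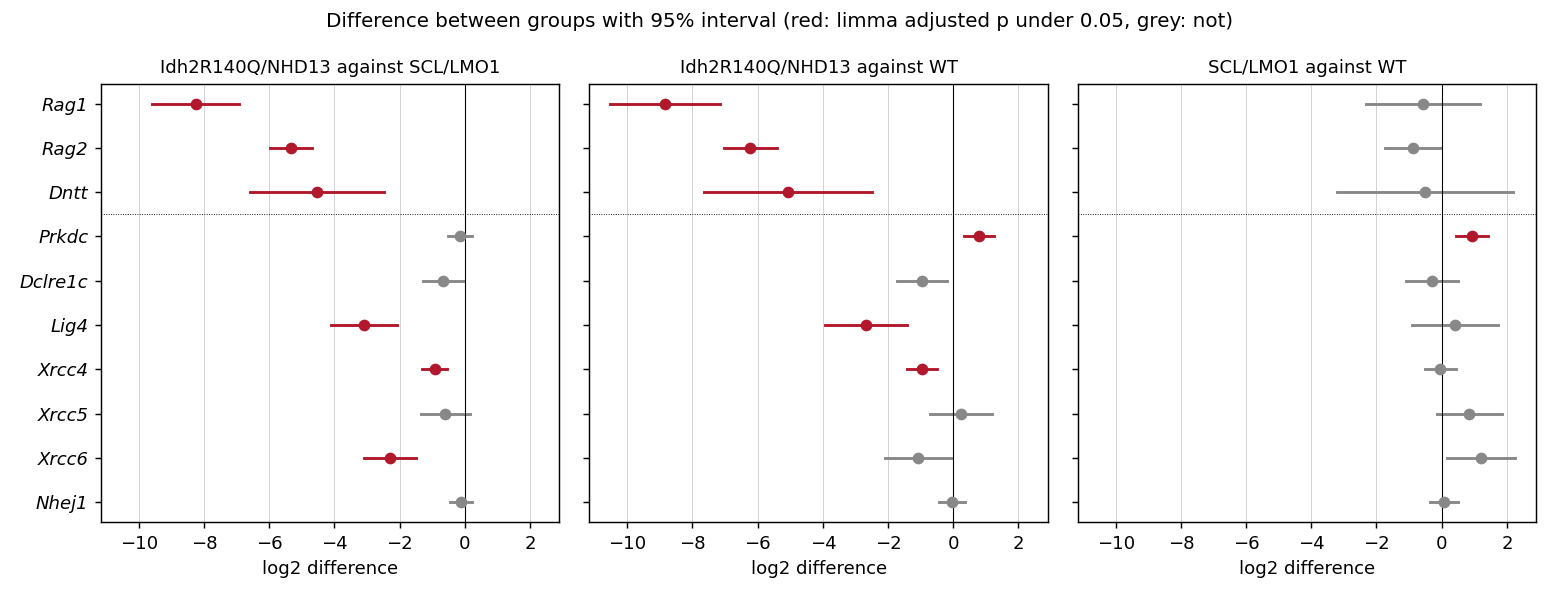
Log2 difference (horizontal axis) with its 95% interval for the 10 genes in the 3 comparisons, in red where limma's adjusted p was under 0.05, with the 3 lymphoid-specific genes above the dotted line. Between the leukemias the differences ran over -8.26 to -4.54 in Rag1, Rag2 and Dntt and over -3.1 to -0.11 in the end-joining genes.

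Counted together, 6 of the 10 genes were lower and 0 higher in Idh2R140Q/NHD13 relative to SCL/LMO1 T-ALL, against 12% of all genes lower and 11.7% higher. The samples of those groups did not overlap for 5 of the 10, Rag1, Rag2, Dntt, Lig4 and Xrcc6, against 8.69% of all genes. The 3 lymphoid-specific genes had a median log2 difference of -5.34 and the 7 end-joining genes one of -0.67, with 3 lower in each set, while the median of all genes was 0.02. Against WT, 5 of the 10 were lower and 1, Prkdc, higher in Idh2R140Q/NHD13 T-ALL, against 8.31% and 9.08% of all genes. The groups did not overlap for 4 genes, Rag1, Rag2, Dntt and Xrcc4, against 12.1% of all genes. For Xrcc4 they nearly touched, at 8.06 in mouse 524 and 8.07 in WT mouse 627. The medians there were -6.22 for the lymphoid-specific and -0.96 for the end-joining genes, against 0.1 for all genes. No test of one set against the other was made, and both comparisons use the same Idh2R140Q/NHD13 samples.

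Between SCL/LMO1 T-ALL and WT thymus 0 of the 10 genes were lower and 1, Prkdc, was higher by limma. These counts are near the shares of all genes, 6.52% lower and 5.04% higher. Besides Prkdc, Xrcc6 and Rag2 had an unadjusted p under 0.05 (0.0274 and 0.045), and Rag2 differed by -0.88 (95% interval -1.74 to -0.02, adjusted p = 0.173). For Rag1 it was -0.57 (-2.33 to 1.19, adjusted p = 0.703) and for Dntt -0.52 (-3.21 to 2.18, adjusted p = 0.836), intervals wide enough to hold differences of over 1 unit either way. The spread in these intervals is shared by all 3 groups, so the scatter of the spleens widens them. The groups did not overlap for 1 gene, Prkdc, against 20.9% of all genes. The 7 thymic epithelium markers averaged 5.58 to 6.16 in Idh2R140Q/NHD13 samples and 9.31 to 10.06 in WT samples. In SCL/LMO1 samples they averaged 9.06 in mouse 3767 and 5.3 to 6.01 in the others. The part of these markers in the results was not tested.

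**Figure D4:**
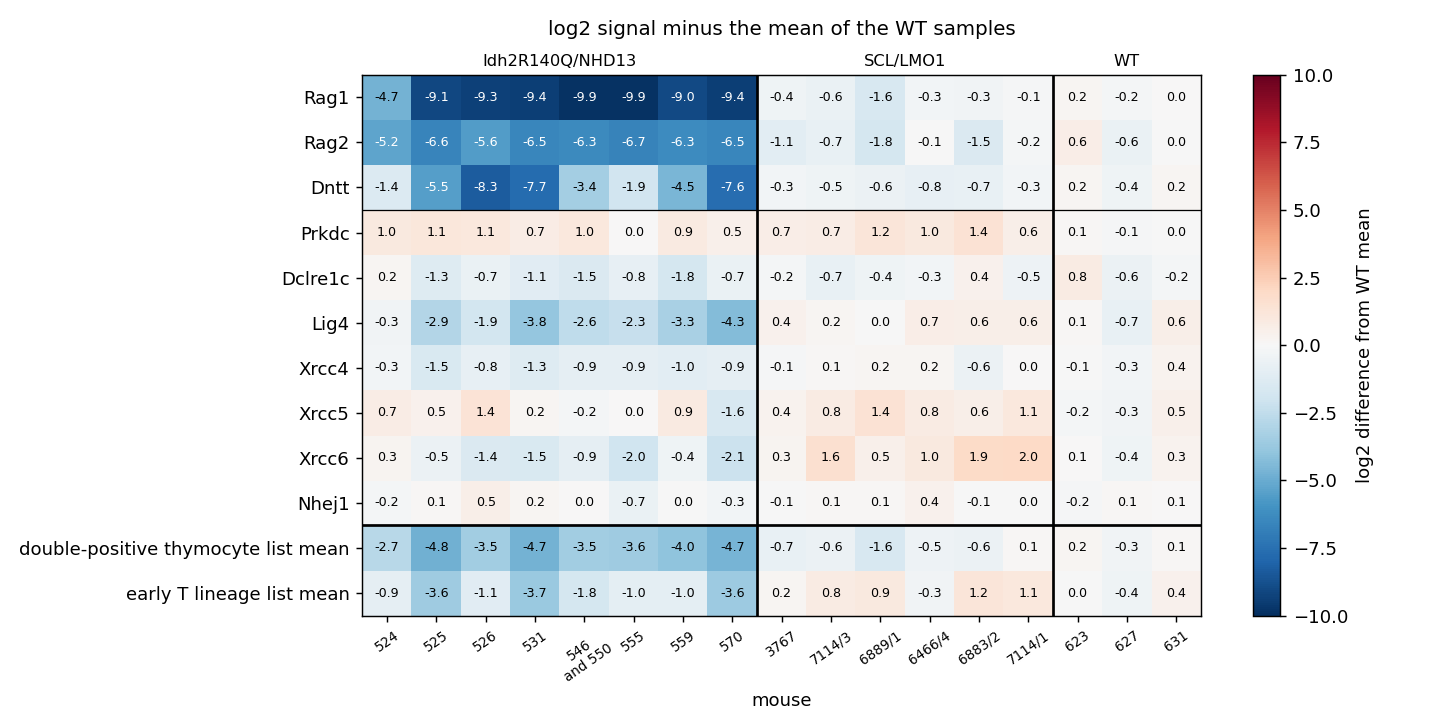
Log2 signal of each gene (rows) in each sample (columns, named by mouse) minus the mean of the WT samples, with the means of the double-positive thymocyte and early T-lineage marker lists in the bottom rows. Mouse 524 is the highest of the spleens in Rag1 (9.2 on the log2 scale), Lig4 (10.51) and Dclre1c (7.05), and in the double-positive list mean (8.11). Of these genes only Rag1 was flagged for a single sample far from the others in the spleens.

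Of 16 transcription factors known to act on the Rag genes or Dntt, 11 were lower and 0 higher in Idh2R140Q/NHD13 relative to SCL/LMO1 T-ALL, with a median log2 difference of -1.66, beside 12% and 11.7% of all genes. Against WT, 7 passed as lower and 0 as higher and the median log2 difference was -1.43, beside 8.31% and 9.08% of all genes, and the other 9 did not pass. With a sample left out the count against SCL/LMO1 was 11 to 12 and that against WT 4 to 10, and it was 4 without WT mouse 623, 627 or 631. The 4 with the smallest adjusted p against SCL/LMO1 were Lef1, a partner of beta-catenin (-5.16, SE 0.61, adjusted p = 2.26e-05 by limma), Ikzf3, of the Ikaros family (-4.18, SE 0.59), the chromatin organiser Satb1 (-4.12, SE 0.66) and Runx1 (-1.84, SE 0.32). Against WT they were Satb1 (-4.74, adjusted p = 0.00131), Lef1 (-3.8), Id3, an inhibitor of E proteins (-2.59), and Ikzf3 (-3.44). Since the list mixes inhibitors such as Id3 with other factors, its counts give no single direction for the Rag genes or Dntt. In SCL/LMO1 T-ALL 1 of the 16, Ikzf1, encoding Ikaros, was higher than in WT (0.83, adjusted p = 0.017 by limma) and 0 were lower. The shares of all genes there were 5.04% higher and 6.52% lower. The call of Ikzf1 was lost without WT mouse 627, and 4 of the 16 were higher with only those 2 groups fitted. Many of these are genes of the T lineage, whose markers were low in the same spleens. Relative to SCL/LMO1 T-ALL, 7 of 8 double-positive and 6 of 8 early T-lineage markers were lower, and relative to WT 6 of 8 and 3 of 8. The part of T-lineage content or stage in the counts of these factors was not tested.

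The genes beside the Rag locus gave smaller differences. Of 4 neighbours, Iftap, Traf6, Prr5l and Commd9, 2 were lower in Idh2R140Q/NHD13 relative to SCL/LMO1 T-ALL and 2 lower relative to WT. The shares of all genes called lower there were 12% and 8.31%. In SCL/LMO1 against WT 5.04% of all genes were higher and 6.52% lower. Iftap, which overlaps Rag2 in the RefSeq annotation, averaged 6.91 ± 1.41 in Idh2R140Q/NHD13 (SD, n = 8), 9.12 ± 0.68 in SCL/LMO1 (n = 6) and 9.72 ± 0.5 in WT samples (n = 3), differences of -2.21 (adjusted p = 0.00885 by limma) and -2.81 (adjusted p = 0.0126). Because Iftap and Rag2 overlap, their signals may not be separate. Traf6, a ubiquitin ligase of immune signalling, differed from SCL/LMO1 by -0.78 (adjusted p = 0.0021), and Commd9 differed from WT by -0.7 (adjusted p = 0.0322). In SCL/LMO1 against WT, Prr5l was lower (-1.41, adjusted p = 0.0361) and Traf6 higher (0.68, adjusted p = 0.0476). The neighbours called lower in Idh2R140Q/NHD13 against WT numbered 1 without WT mouse 623 or 631 or Idh2R140Q/NHD13 mouse 559 and 0 without WT mouse 627, and in SCL/LMO1 against WT the call of Prr5l was lost without any WT mouse or any SCL/LMO1 mouse but 3767, and that of Traf6 without any mouse but 631, 524, 555 and 6889/1.

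Of 10 measured V(D)J accessory and end-processing genes, Idh2R140Q/NHD13 T-ALL had 2 higher and 4 lower relative to SCL/LMO1 T-ALL, 2 and 2 against WT, and 2 and 0 in SCL/LMO1 against WT. Of all genes, 11.7% were higher and 12% lower between the leukemias, and 9.08% and 8.31% against WT. In SCL/LMO1 against WT the shares were 5.04% and 6.52%. With quantile normalization the 2 higher between the leukemias became 1, and with mice 7114/1 and 7114/3 averaged the 4 lower became 2. The 4 lower became 2 without SCL/LMO1 mouse 6883/2 or 7114/1, the counts against WT became 1 higher and 1 lower without WT mouse 623, with 0 lower without WT mouse 627 and 1 without WT mouse 631, and those of SCL/LMO1 against WT became 0 without WT mouse 623 or 627 and 1 without any SCL/LMO1 mouse but 3767. Aptx, which removes adenylate from failed ligations, differed by -0.8 (adjusted p = 0.000201 by limma) between the leukemias and by -0.5 (adjusted p = 0.0325) from WT. The polymerases of this pathway differed in opposite directions between the leukemias, Polm by -0.56 (adjusted p = 0.0054) and Poll by 0.89 (adjusted p = 0.0121). Polm averaged 6.15 in Idh2R140Q/NHD13, 6.71 in SCL/LMO1 and 6.01 in WT samples. It was called higher in SCL/LMO1 than in WT (0.7, adjusted p = 0.0163 by limma). Poll was called higher in Idh2R140Q/NHD13 than in WT (1.06, adjusted p = 0.0232). Aplf, an end-joining scaffold, was higher by 0.68 (adjusted p = 0.0131) than in SCL/LMO1 and by 1.26 (adjusted p = 0.00187) than in WT. Hmgb1 and Cyren were not measured.

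Of 14 genes of break signalling and end protection, 2 were higher and 1 lower between the leukemias, 5 higher and 0 lower in Idh2R140Q/NHD13 against WT, and 1 higher and 0 lower in SCL/LMO1 against WT. The share of all genes called higher was 11.7%, 9.08% and 5.04% in these comparisons, and that called lower 12%, 8.31% and 6.52%. The 2 higher between the leukemias became 0 without SCL/LMO1 mouse 3767 and 1 without SCL/LMO1 mouse 7114/3, 6466/4 or 6883/2 or Idh2R140Q/NHD13 mouse 531 or 559, and the 1 lower became 2 without mouse 531 or 6889/1. The 5 higher against WT became 0 without WT mouse 623, 2 without WT mouse 627 and 3 without mouse 531 or 559. The 1 higher in SCL/LMO1 became 0 without mouse 623, 627, 6889/1 or 6466/4 and 2 without mouse 631, 525, 555 or 570. The 3 subunits of the MRN complex, which senses breaks, were among the genes higher in Idh2R140Q/NHD13 than in WT: Mre11a by 0.94 (adjusted p = 0.00656 by limma), Rad50 by 0.84 (adjusted p = 0.0169) and Nbn by 1.01 (adjusted p = 0.0372). Trp53bp1, which protects ends from resection, differed by -0.79 (adjusted p = 0.0175) between the leukemias. Of 8 alternative end-joining genes, 0 were higher and 2 lower between the leukemias, Xrcc1 (-0.61, adjusted p = 0.00139) and Lig3 (-0.53, adjusted p = 0.0158), a scaffold and its ligase. Against WT 4 were higher in Idh2R140Q/NHD13 (Parp1, Parp2, Fen1 and Polq, by 0.54 to 0.98) and 3 in SCL/LMO1 T-ALL (Xrcc1, Lig3 and Parp2, by 0.66 to 0.81), and 0 were lower. Of 14 homologous recombination genes, 0 were higher and 1 lower between the leukemias, Rad52 (-0.59, adjusted p = 0.0106). Against WT 3 were higher in Idh2R140Q/NHD13, including Palb2 (0.88, adjusted p = 0.0187) and Brca2 (1.13, adjusted p = 0.041), and 2 in SCL/LMO1 T-ALL. All of the higher calls against WT in the alternative end-joining list of Idh2R140Q/NHD13 T-ALL were lost without WT mouse 623, and they numbered 1 without WT mouse 627 and 2 without mouse 525, 531, 559 or 570 or the averaged mice 546 and 550. Those of the homologous recombination list, and both lists in SCL/LMO1 T-ALL, numbered 0 without WT mouse 623 and 0 without WT mouse 627. The homologous recombination calls also numbered 5 in Idh2R140Q/NHD13 without mouse 524, and 1 in SCL/LMO1 without mouse 526, the averaged mice 546 and 550, or any SCL/LMO1 mouse but 3767. Of 16 cell-cycle genes, 0 were called in either direction between the leukemias, 1 was higher in Idh2R140Q/NHD13 than in WT, Mcm6 (0.81, adjusted p = 0.0118), and 2 in SCL/LMO1 T-ALL, Mcm6 and Mcm7. These too numbered 0 without WT mouse 623 and 0 without WT mouse 627, were 4 without WT mouse 631, and in Idh2R140Q/NHD13 were 4 without mouse 524 and 5 without mouse 555, and in SCL/LMO1 T-ALL 5 without mouse 524 and 1 without mouse 7114/3 or 6466/4. The all-gene medians of 0.1 and 0.08 against WT stand beside these counts.

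Over all 17 samples the genes whose pattern was most like that of Rag1 were Rag2 (Pearson r = 0.976), Osbpl11 (0.968), Slc16a5 (0.962), Gsk3b (0.961) and Nsg2 (0.958). For Rag2 they were Cd8b1 (0.979), Rag1, Cd8a (0.967), Nsg2 (0.959) and Gsk3b (0.953). For Dntt they were Sit1 (0.935), Srpk2 (0.932), Edem1 (0.928), Gfi1 (0.922) and Endou (0.913). These values describe how the genes follow the groups, which form separate clusters of samples, and have no p. Cd8a and Cd8b1, the chains of the CD8 coreceptor, differed between Idh2R140Q/NHD13 and SCL/LMO1 T-ALL by -4.58 and -6.17, as Rag2 did by -5.34. In SCL/LMO1 against WT, Cd8b1 was lower (-2.03, adjusted p = 0.00619 by limma), while Cd8a had -1.39 (adjusted p = 0.0515).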

How the data were processed

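Total RNA was extracted with TRIzol and biotin-labelled, per the labels' protocols, and hybridised to 18 arrays. The values are the log2 signals the authors deposited, 1 per probe set, whose summarisation and normalization are not given in the sources used here. No further scaling was applied and no detection calls were used. Another 36 per-array columns carry array numbers that match no label and were not used.

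Probe sets were named from the deposited platform annotation, with symbols updated by Entrez identifier (35121 matched, 1813 updated). Of 45101 probe sets 38089 had a symbol, 6948 had none and 64 were controls. The brightest probe set by mean over 18 arrays stood for each of 20672 genes. The members and lists were chosen with earlier results of these data known. All 10 members are named, up to 4 called genes of each list by smallest adjusted p, and the 5 genes most alike by Pearson r to Rag1, Rag2 and Dntt, leaving out receptor segments and predicted symbols.

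Tests used limma 3.58.1 in R 4.3.3, fitting the 3 group means on log2 values and testing 3 contrasts with moderated variances (eBayes). P-values were adjusted by the Benjamini-Hochberg method over 20672 genes. The script was tested on simulated data. Correlations used exact permutation over all pairings (scipy 1.17.1). Alternatives were quantile normalization, centred arrays, genes above the 40th percentile in at least 3 arrays (15154 left), the mean of probe sets, single probe sets, a variance trend, array weights, 2 groups only, all 18 arrays, mice 7114/1 and 7114/3 as a block (correlation 0.612, by restricted maximum likelihood, since duplicateCorrelation gave no value) or averaged, mice 555, 627 and 6889/1 left out, an adjusted p under 0.01, and each sample left out. Leaving out mouse 524 from the correlations was chosen after seeing the data.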

Additional observations from a re-analysis of the deposited data

Results flagged for a closer look

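Among 20 groups of values tested for a single sample far from the others (10 genes in Idh2R140Q/NHD13 and SCL/LMO1 samples), 3 held one, where chance gives about 1 in 20. Rag1 in Idh2R140Q/NHD13 mouse 524 was 9.2, its gap to the nearest sample being 0.82 of the group's range against a critical value of 0.526. Rag1 in SCL/LMO1 mouse 6889/1 was 12.32, the lowest of its group (gap 0.64 of the range, critical value 0.625). Nhej1 in SCL/LMO1 mouse 6466/4 was 7.38, the highest of its group (0.65, critical value 0.625). Mouse 6889/1 also had the lowest double-positive list mean of the SCL/LMO1 samples, at 9.25.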

How the results depend on the processing

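No paired analysis was possible because the groups share no replicate numbers. Rag1, Rag2, Lig4 and Xrcc4 were called lower in both comparisons of Idh2R140Q/NHD13 under all alternatives at an adjusted p under 0.05, and Dntt and Xrcc6 in that against SCL/LMO1. Of the alternative values of the 10 members, 850 kept direction and call, 9 lost a call, 9 gained one and 20 changed sign, all of these last in values not called. Without mice 555, 627 and 6889/1 the counts of members stayed at 6 lower, 5 lower with 1 higher, and 1 higher in the 3 comparisons. The cause of the changes below was not tested, except that a stricter threshold calls fewer genes by construction. Genes called between the leukemias numbered 4902, and 2780 at an adjusted p under 0.01. For Idh2R140Q/NHD13 against WT they numbered 3596, 6902 with array weights, 1989 with 2 groups only, 1401 at 0.01, and 1382 to 5288 with a sample left out (1382 without WT mouse 623, 1979 without WT mouse 627). For SCL/LMO1 against WT they numbered 2390, 4827 with array weights, 1060 without mice 555, 627 and 6889/1, 889 at 0.01, and 765 to 2989 with a sample left out (1200 without WT mouse 623, 765 without WT mouse 627). Members higher in Idh2R140Q/NHD13 than WT numbered 0 at 0.01 and 0 to 1 with a sample left out, and in SCL/LMO1 2 with array weights, 2 with 2 groups only, 0 at 0.01 and 0 to 1 with a sample left out. Counts of the pathway lists against WT moved without WT mouse 623 or 627, as given beside them, and rose in several lists with array weights. With array weights 7 cell-cycle and 7 homologous recombination genes were higher in Idh2R140Q/NHD13 than in WT, against 1 and 3 in the main fit. In SCL/LMO1 against WT 7 break-signalling and 7 homologous recombination genes were higher with array weights, against 1 and 2. Changed signs were Prkdc between the leukemias (0.02 without mice 555, 627 and 6889/1), Nhej1 between the leukemias (0.07 by the mean of probe sets, 0.26 by its other probe set), and Dclre1c in SCL/LMO1 against WT (-0.59 to 0.12 with a sample left out). Nhej1 in Idh2R140Q/NHD13 against WT was 0.10 by quantile normalization, array weights or without mice 555, 627 and 6889/1, 0.02 centred, 0.15 by the mean of probe sets, 0.33 by its other probe set, and -0.12 to 0.06 with a sample left out. Xrcc4 in SCL/LMO1 against WT was 0.01 by quantile normalization or array weights, 0.02 centred or by the mean of probe sets, 0.07 by its other probe set, and -0.18 to 0.14 with a sample left out. The correlation of Rag1 with Dntt was -0.37 without the 2 farthest samples and -0.51 without mouse 524 in Idh2R140Q/NHD13, and -0.64 in SCL/LMO1 without the 2 farthest samples, and that of Rag2 with Dntt was -0.45 without mouse 524. Signals at the low end of the arrays limit how far a lower value can be measured.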
